A study of Mus musculus with 18 samples.

Results

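The immunity-related GTPases (IRGs) are GTP-binding proteins that interferons induce in mouse cells, and 7 of their genes, Irgm1, Irgm2, Igtp, Ifi47, Iigp1, Tgtp2 and Tgtp1, were taken by name from the 20615 genes of an RNA-seq table of bone marrow-derived macrophages (BMDMs). All 7 members passed the filter on low counts that left 15789 genes for testing. IRG proteins gather on the membrane of vacuoles that hold intracellular parasites or bacteria, and the vacuole is then broken up. The GMS proteins, Irgm1, Irgm2 and Igtp (also called Irgm3), sit on the cell's own membranes and hold the effector proteins in their inactive state. The effectors that load onto the vacuole are the GKS proteins, here Iigp1 (also called Irga6), Tgtp1 and Tgtp2 (both known as Irgb6) and Ifi47 (also called Irgd). Interferon-γ is the best known inducer of the family in macrophages, and interferon-β induces it as well.

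The BMDMs were grown for 7 days in medium with M-CSF from bone marrow of mice aged 7 to 12 weeks, either C57BL/6 (B6) or C57BL/6.NOD-Aec1Aec2 (SjSS), a model of Sjögren's syndrome that carries intervals of the diabetes-prone NOD mouse on chromosomes 1 and 3 of the B6 background. In each strain, 3 samples were left untreated (control), 3 received apoptotic cells (AC), which were thymocytes killed with dexamethasone and given at 5 per BMDM for 2 h with a wash and a further 3 h by the labels, and 3 received CpG, an agonist of an endosomal Toll-like receptor, at 1 µM for 6 h. The comparisons asked how BMDMs of each strain respond to ACs, with CpG as another inflammatory stimulus. Each strain was represented by 3 mice, but which samples share a mouse and which strain's thymocytes each sample received are not stated, so that the p values measure the spread between these samples. The strain difference cannot be assigned to any 1 gene of the NOD intervals, all of which the SjSS samples share.

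The samples had 30688336 to 57139662 estimated counts each. All 10 macrophage markers were detected in all 18 samples, at a summed 15640 to 23950 CPM (counts scaled to a common library total). The 15 T-lineage markers summed to 0.865 to 1.72 CPM in control and CpG treated samples and to 2.02 to 3.03 CPM in AC treated samples of both strains, where no single marker passed 0.982 CPM. NK markers summed to at most 0.399 CPM. The 5 dendritic markers summed to 0.801 to 1.27 CPM in controls of both strains, 1.00 to 1.23 CPM in AC treated B6 and 2.52 to 3.57 CPM in AC treated SjSS. With CpG they summed to 1.33 to 2.22 CPM in B6 and 1.73 to 2.19 CPM in SjSS. Xcr1 was the highest dendritic marker in AC treated SjSS and with CpG, at up to 2.67 CPM, and no other passed 0.822 CPM. The 5 neutrophil markers in the table summed to 3.57 to 5.26 CPM in control and 11.3 to 13.1 CPM in CpG treated B6, and to 2.57 to 3.00 and 5.63 to 6.01 CPM in SjSS. Of these S100a8 was the highest in every group, at up to 11.1 CPM, and no other passed 2.34 CPM. The 4 B lineage markers, almost wholly Cd79b, were lower with treatment, at 16.1 to 26.5 CPM in controls and 8.98 to 14.8 CPM in treated samples.

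The bases before the start of each gene are shown first, because the members rose together after treatment and interferon-induced transcription factors bind short, well defined motifs. Signals through interferon-β act at interferon-stimulated response elements (ISREs), and those through interferon-γ at gamma-activated sequences (GAS). Searched on both strands were an ISRE-type motif, GAAA repeated in the same orientation after any 2 bases, and a GAS-type motif, TTCNNNGAA, in the 250 bases before the RefSeq start (GRCm38.p6). Below are the last 100 bases before the start, 5′ to 3′ on the strand of the gene, with every match in capitals, for the 6 members with an entry and for the neighbouring IRG gene Gm12185.
Irgm1 (chr11:48871421-48871520, minus strand): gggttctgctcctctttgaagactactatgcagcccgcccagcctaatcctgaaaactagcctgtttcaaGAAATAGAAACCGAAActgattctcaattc
Irgm2 (chr11:58214877-58214976, plus strand): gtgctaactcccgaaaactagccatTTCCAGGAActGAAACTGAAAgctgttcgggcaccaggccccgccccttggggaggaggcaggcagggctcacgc
Igtp (chr11:58199456-58199555, plus strand): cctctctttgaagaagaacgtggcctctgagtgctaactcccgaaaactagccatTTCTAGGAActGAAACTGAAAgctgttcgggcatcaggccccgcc
Ifi47 (chr11:49076487-49076586, plus strand): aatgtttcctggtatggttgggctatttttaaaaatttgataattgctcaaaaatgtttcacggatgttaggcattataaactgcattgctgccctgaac
Tgtp2 (chr11:49064213-49064312, minus strand): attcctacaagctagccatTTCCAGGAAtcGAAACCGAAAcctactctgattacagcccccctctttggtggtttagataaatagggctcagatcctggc
Tgtp1 (chr11:48992247-48992346, minus strand): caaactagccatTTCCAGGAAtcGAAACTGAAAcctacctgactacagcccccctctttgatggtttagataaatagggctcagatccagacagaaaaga
Gm12185 (chr11:48927183-48927282, minus strand): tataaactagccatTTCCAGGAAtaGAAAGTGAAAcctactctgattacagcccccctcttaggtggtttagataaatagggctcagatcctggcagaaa

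In Igtp, Irgm2, Tgtp1, Tgtp2 and Gm12185 the GAS-type match was followed after 2 bases by the ISRE-type match, in the same orientation, at 45 to 25 bases before the start in Igtp, 75 to 55 in Irgm2, 88 to 68 in Tgtp1, 81 to 61 in Tgtp2 and 86 to 66 in Gm12185. Irgm1 held a pair of overlapping ISRE-type matches (30 to 21 and 24 to 15 bases before the start) and no GAS-type match, and the window of Ifi47 held neither. Each window stands before 1 RefSeq start, and annotated transcript starts more than 250 bases from it were not searched, of which Ifi47 had 4 (49086700 to 49088264), Tgtp1 had 2 (48992890 and 48994172), Irgm1 had 1 (48871683) and Irgm2 had 1 (58199618). Among all 32851 RefSeq windows, 2.98% held the ISRE-type motif and 7.02% the GAS-type motif, and 0.332% held both. The joined form, the GAS-type motif, any 2 bases and then the ISRE-type motif, whose spacing was chosen after the matches of the members had been seen, occurred in 5 of the 32851 windows (0.0152%), those of the 4 members and Gm12185. These genes also share sequence around the matches, since the windows of Igtp and Irgm2 were 90.2% identical over 215 aligned bases and those of Tgtp1 and Tgtp2 77.0% over 222. A match describes the letters of a window and was not tested as a binding site.

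**Figure D1:**
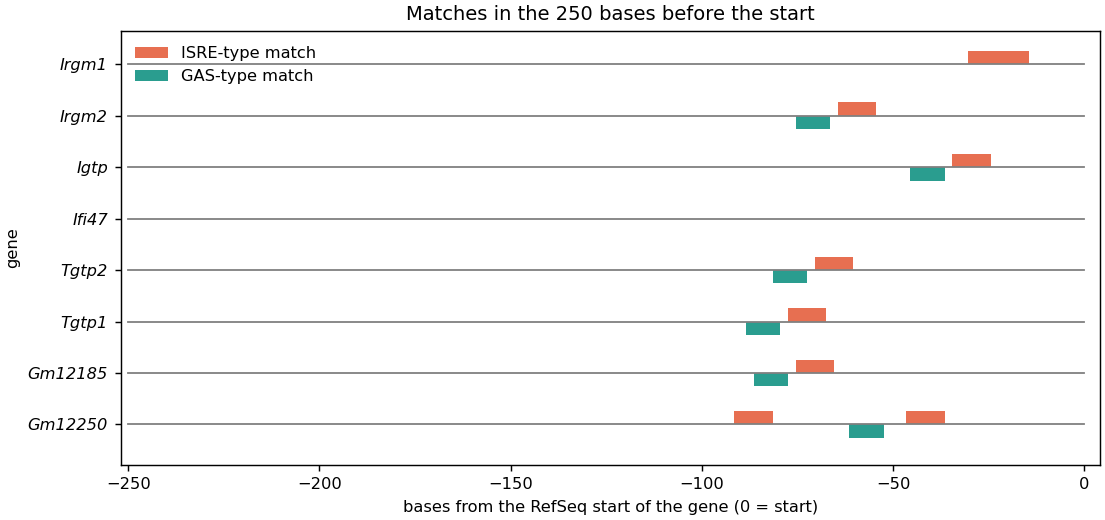
Positions of ISRE-type (orange) and GAS-type (green) matches in the 250 bases before the RefSeq start of 6 members, Gm12185 and Gm12250 (x axis, bases from the start). In Igtp, Irgm2, Tgtp1, Tgtp2 and Gm12185 a GAS-type match lies 2 bases before an ISRE-type match, Irgm1 has ISRE-type matches only, and Ifi47 has none.

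The members lie on chromosome 11 apart from Iigp1, which lies on chromosome 18 (60376029 to 60392627, plus strand, mm10), so that none lies on a chromosome of the NOD intervals. One cluster on chromosome 11 holds Irgm1 (48861968 to 48871683, minus strand), Tgtp1 (48985327 to 48994172, minus strand), Tgtp2 (49057194 to 49064206, minus strand) and Ifi47 (49076587 to 49096974, plus strand). The other holds Igtp (58199556 to 58207591, plus strand) and Irgm2 (58199618 to 58222782, plus strand), whose deposited spans overlap on the same strand. The coding sequences of Tgtp1 and Tgtp2 were 99.7% identical over 1245 bases, whereas Igtp and Irgm2 shared 73.1% and no other pair more than 68.8%. Of the 100-base words in its annotated transcripts, Tgtp1 shared 73.1% with other genes and Tgtp2 76.8%, almost all with each other, while Igtp shared 5.16%, Irgm2 3.01%, Ifi47 0.842% and Irgm1 and Iigp1 none. The split of reads between Tgtp1 and Tgtp2 is therefore an estimate of the authors' counting step, and values of the pair are uncertain as to which copy they belong.

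After ACs, transcripts of all 7 members were higher than in control BMDMs of the same strain, and they rose far more in SjSS than in B6. A gene was called higher or lower where its p under the quasi-likelihood test of edgeR, adjusted over all tested genes by Benjamini and Hochberg's method, was under 0.05 and its log2 fold change was larger than 1.3 in either direction. In B6, 5 of the 7 members were called higher, against 2.43% of all tested genes, and in SjSS all 7 were, against 7.09%. By the adjusted p alone all 7 were higher in both strains, against 20% of tested genes in B6 and 28.6% in SjSS, where 29.4% were lower. For all 7 members no AC treated sample overlapped the controls of its strain, as was the case for 25.7% of tested genes in B6 and 31.5% in SjSS. The median log2 fold change of the members was 1.46 in B6 and 4.54 in SjSS, and that of all tested genes was 0.00150 and -0.02. In these bulk samples a change in the number of cells of a type and in the RNA for each cell cannot be told apart. The summed T-lineage markers given above were higher with ACs in both strains. The dendritic sum was higher in SjSS, where Xcr1 alone reached up to 2.67 CPM. The part of these markers in the response was not tested.

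Of the GMS regulators, Irgm1, which mice need to resist several intracellular bacteria and parasites, stood at 38.5, 38.4 and 36.3 CPM in control and 109.7, 99.5 and 103 CPM in AC treated B6. In SjSS it stood at 62.3, 62.9 and 61.7 CPM in control and 953, 955 and 956 CPM with ACs. Every AC treated sample lay above every control sample of its strain. By the ratio of the highest to the lowest sample, AC treated SjSS had the smallest spread of any group (1.003). Irgm1 rose by 1.46 ± 0.15 on the log2 scale in B6 (2.76-fold, adjusted p = 2.18e-07) and by 3.94 ± 0.16 in SjSS (15.3-fold, adjusted p = 9.35e-14), where errors are the SE of the fit with n = 3 in each group.

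For Irgm2, a regulator found on Golgi membranes, the levels were 37.2, 33.4 and 36.8 CPM in control and 91.9, 80.1 and 82.8 CPM in AC treated B6. In SjSS they were 48.0, 47.3 and 52.4 CPM in control and 743, 721 and 726 CPM with ACs. The groups did not overlap in either strain. The change in B6 was 1.25 ± 0.14 (2.37-fold, adjusted p = 6.81e-07), below the fold threshold, and in SjSS Irgm2 rose by 3.89 ± 0.15 (14.8-fold, adjusted p = 4.41e-14).

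The third regulator, Igtp, a protein of the endoplasmic reticulum and lipid droplets, was at 16.6, 17.4 and 18.2 CPM in control and 46.9, 42.8 and 44.5 CPM in AC treated B6. In SjSS the samples held 22.7, 24.7 and 23.2 CPM in control and 566, 539.8 and 534 CPM with ACs. No AC treated sample came near its controls. Igtp rose by 1.36 ± 0.15 in B6 (2.57-fold, adjusted p = 6.91e-07) and by 4.54 ± 0.16 in SjSS (23.3-fold, adjusted p = 1.9e-14). The B6 call ended when the counts of Igtp and its neighbour Irgm2 were added together, which gave 1.285 for the sum.

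Among the effectors, Ifi47 was at 25.7, 26.4 and 23.6 CPM in control and 50.6, 50.99 and 54.3 CPM in AC treated B6, the smallest B6 change of the family. In SjSS it was at 38.7, 40.8 and 38.5 CPM in control and 592, 610.0 and 607 CPM with ACs. Both strains had AC samples apart from controls. Its log2 fold change of 1.04 ± 0.14 in B6 (2.06-fold, adjusted p = 1.11e-05) did not reach the fold threshold, and in SjSS Ifi47 rose by 3.94 ± 0.15 (15.3-fold, adjusted p = 6.85e-14).

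Iigp1, the effector best studied on parasite vacuoles, was low in controls, at 5.72, 7.03 and 4.58 CPM in B6 and 12.0, 10.1 and 8.05 CPM in SjSS. With ACs it reached 27.3, 30.9 and 34.7 CPM in B6 and 1546, 1255 and 1350.0 CPM in SjSS. The lowest AC treated SjSS sample lay far above the highest sample of any other group. It rose by 2.43 ± 0.27 in B6 (5.38-fold, adjusted p = 8.11e-07) and by 7.10 ± 0.30 in SjSS (138-fold, adjusted p = 2.01e-13).

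Tgtp2 followed the same order of groups, with 5.03, 6.11 and 4.65 CPM in control and 30.5, 29.3 and 33.1 CPM in AC treated B6. In SjSS it was at 10.1, 11.5 and 9.88 CPM in control and 703, 651 and 652 CPM with ACs. It rose by 2.56 ± 0.24 in B6 (5.91-fold, adjusted p = 8.31e-08), the largest B6 change of the family, and by 6.00 ± 0.25 in SjSS (64.1-fold, adjusted p = 1.74e-13). Its near copy Tgtp1 was assigned far fewer reads, 4 to 11 counts in control B6 samples (0.176, 0.167 and 0.0710 CPM) and 6 to 14 in control SjSS samples (0.111, 0.325 and 0.254 CPM). With ACs it was at 0.556, 0.435 and 0.669 CPM in B6, from 23 to 30 counts, and at 53.7, 42.4 and 44.1 CPM in SjSS, from 1966 to 2080 counts. Tgtp1 rose by 1.97 ± 0.44 in B6 (3.92-fold, adjusted p = 0.00152) and by 7.73 ± 0.28 in SjSS (212-fold, adjusted p = 2.7e-14), where its rise was the largest of the 7 genes as counted but rests on few control counts. When the counts of both copies were added, the pair rose by 2.55 in B6 and by 6.07 in SjSS, the latter below the 7.10 of Iigp1.

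**Figure D2:**
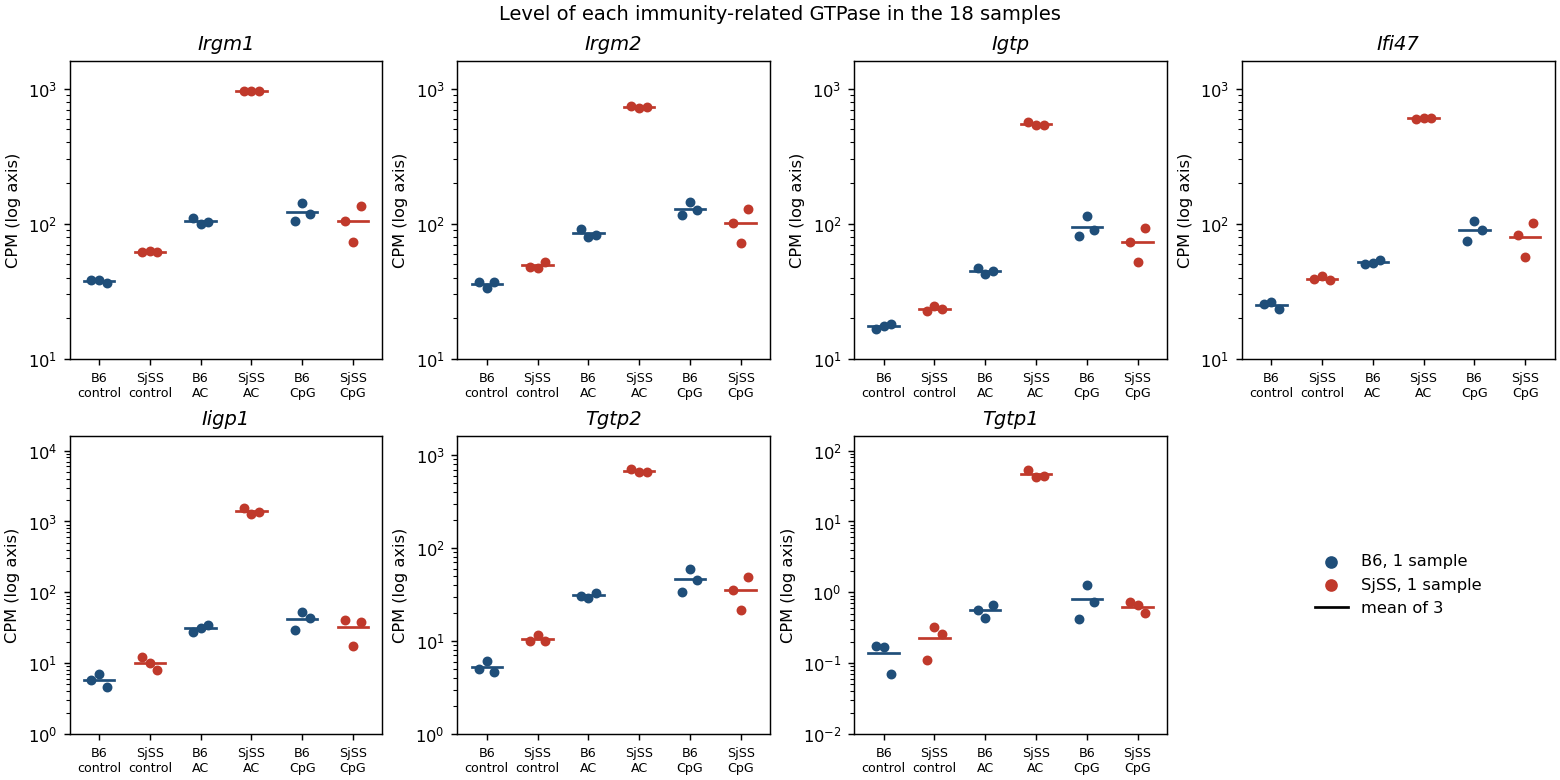
Level of each member in CPM (y axis, log scale, 1 point for each sample, line at the mean of 3) in the 6 groups of B6 (blue) and SjSS (red) BMDMs. For every member the 3 AC treated SjSS samples stand above all 15 other samples.

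The strains differed in the size of the AC response for every member. The interaction of strain and AC, the log2 fold change in SjSS less that in B6, passed the thresholds for all 7, against 4.76% of all tested genes called higher. It was 2.48 ± 0.20 for Irgm1 (adjusted p = 1.68e-08), 2.64 ± 0.19 for Irgm2 (adjusted p = 3.4e-09) and 3.18 ± 0.21 for Igtp (adjusted p = 1.02e-09) among the regulators. Among the effectors it was 2.90 ± 0.20 for Ifi47 (adjusted p = 2.04e-09), 3.44 ± 0.33 for Tgtp2 (adjusted p = 1.06e-07), 4.68 ± 0.37 for Iigp1 (adjusted p = 1.22e-08) and 5.76 ± 0.72 for Tgtp1 (adjusted p = 4.07e-06). Direct comparison of AC treated BMDMs gave levels 8.59-fold (Irgm2) to 84.8-fold (Tgtp1) higher in SjSS than in B6, and all 7 members were called higher, against 6.24% of tested genes. The values of Tgtp1 rest on the split of reads between the copies, and with the copies added the pair had an interaction of 3.52 and a log2 difference between AC treated strains of 4.50.

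Within SjSS the members fell into a lower and a higher range of AC response. The log2 fold changes of Irgm1, Irgm2, Igtp and Ifi47 were 3.89 to 4.54, and their 95% intervals ended at 4.88 or below. Those of Tgtp2, Iigp1 and Tgtp1 were 6.00 to 7.73, with intervals that began at 5.48 or above. The division did not follow the GMS and GKS classes throughout, since the GKS gene Ifi47 lay with the regulators. Of the genes with the joined promoter match, Igtp and Irgm2 lay in the lower range, with Irgm1 and Ifi47, in whose windows it was not found. Tgtp1 and Tgtp2, which also have the match, lay in the higher range, and Iigp1 had no window. The part of the promoter matches in the division was not tested.

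**Figure D3:**
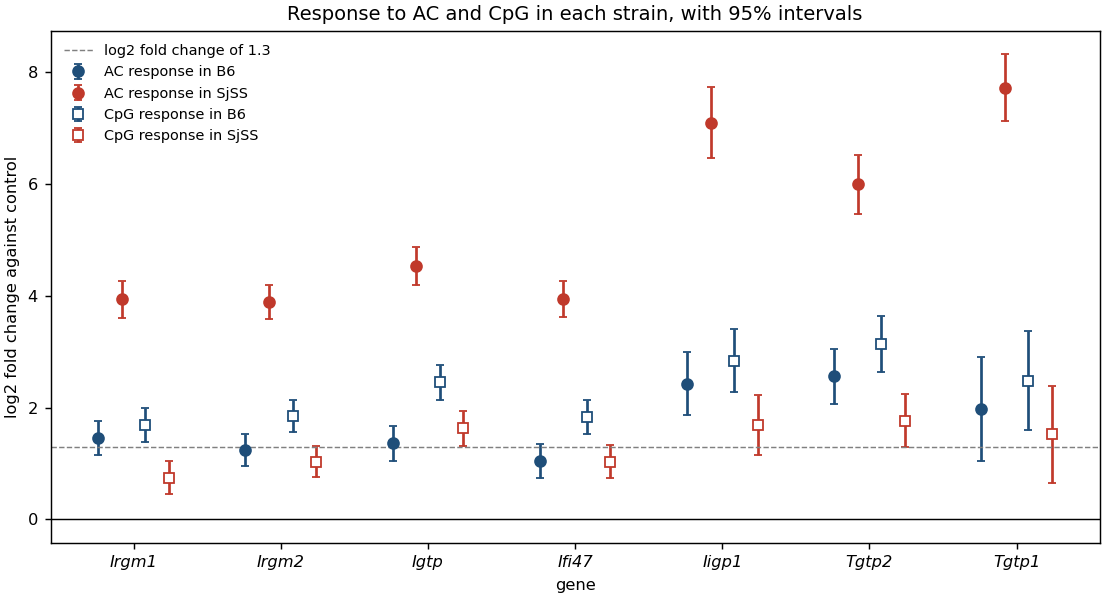
Log2 fold change against control of each member (x axis) after ACs (filled circles) and CpG (open squares) in B6 (blue) and SjSS (red), with 95% intervals and a dashed line at 1.3. The AC response in SjSS lies above the other 3 responses for every member, and Tgtp2, Iigp1 and Tgtp1 lie above the remaining members.

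The makeup of the family changed with it. Levels of different genes are compared here only as CPM per kb of exon, since the members differ in length. In control B6 the order was Ifi47 (10.2 ± 0.592), Irgm2 (9.71 ± 0.562), Igtp (8.60 ± 0.387), Irgm1 (6.50 ± 0.218), Tgtp2 (1.79 ± 0.258), Iigp1 (0.992 ± 0.210) and Tgtp1 (0.0431 ± 0.0182), as mean ± SD with n = 3, and only Ifi47 and Irgm2 overlapped between samples. In AC treated SjSS it was Igtp (270.3 ± 8.37), Ifi47 (244 ± 3.92), Iigp1 (238 ± 25.4), Tgtp2 (228 ± 10.1), Irgm2 (198 ± 3.19), Irgm1 (164 ± 0.224) and Tgtp1 (14.6 ± 1.91), with Iigp1 overlapping Igtp, Ifi47 and Tgtp2. Per kb, Irgm1 and Irgm2 thus stood above Iigp1 and Tgtp2 in control B6 and below them in AC treated SjSS.

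Summed over the 7 members, the level per kb was 37.8 ± 0.608 in control B6, 56.97 ± 1.01 in control SjSS, 100.1 ± 3.56 in AC treated B6 and 1356 ± 43.9 in AC treated SjSS. The GMS regulators took 65.5, 63.4 and 67.9% of that sum in control B6 and 62.3, 61.7 and 64.1% in control SjSS. With ACs their share was 65.2, 62.5 and 61.2% in B6 and 45.9, 47.4 and 46.7% in SjSS. The AC treated SjSS samples thus lay apart from the other 15, of which none came below 60.8%. The share of Iigp1 was 2.12 to 3.15% in control B6 and 16.3 to 18.9% in AC treated SjSS. Of the reads assigned to the Tgtp pair, per kb, Tgtp1 took 6.55, 5.64 and 5.84% in AC treated SjSS and 0.926 to 3.11% in the other 15 samples, a share that rests on the estimated split.

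**Figure D4:**
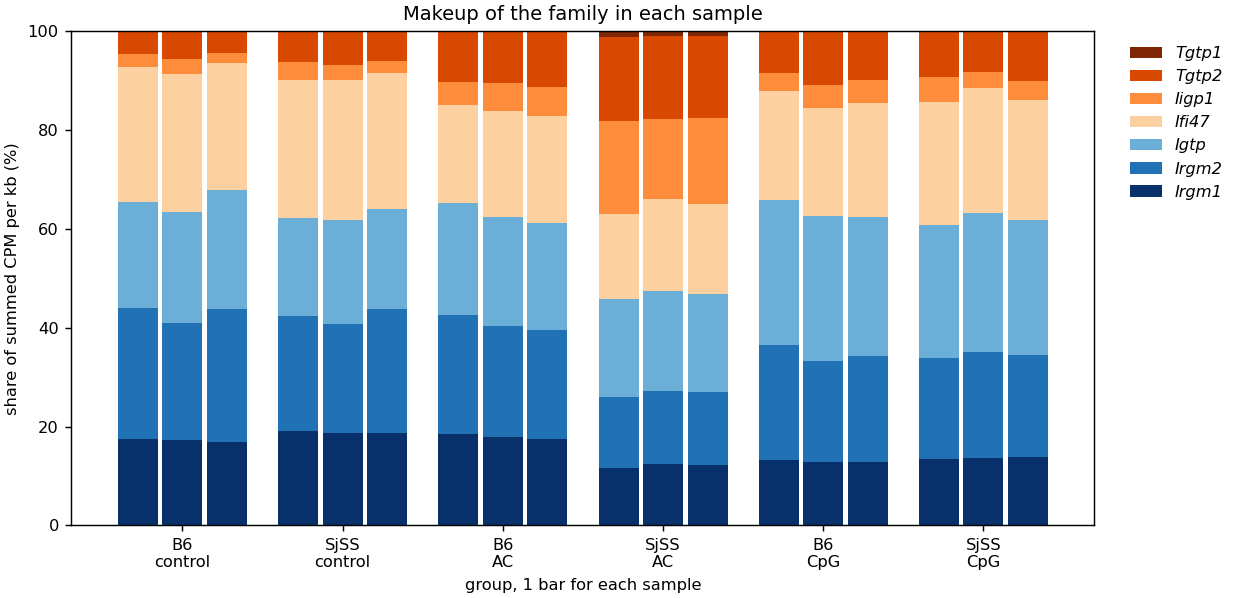
Share of each member in the summed CPM per kb of the family (y axis, %, stacked), with 1 bar for each of the 18 samples by group; blue shades are the GMS regulators and orange shades the GKS effectors. The blue part is 45.9 to 47.4% in AC treated SjSS samples and at least 60.8% in the others.

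CpG raised members of the family in both strains. All 7 members were called higher in B6, against 5.86% of tested genes, with a median log2 fold change of 2.45, and 4 of 7 were in SjSS, against 4.81%, with a median of 1.52. By the adjusted p alone all 7 were higher in SjSS as well, against 27.8%. For each member every CpG treated sample lay above every control sample of its strain, as in 30.1% of tested genes in B6 and 30.6% in SjSS. The summed neutrophil and dendritic markers were also higher with CpG in both strains, and their part in the response was not tested. The responses to CpG and to ACs within a strain share their 3 control samples.

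Of the regulators, Irgm1 was at 105, 143 and 117 CPM in CpG treated B6 and 105, 72.9 and 136 CPM in CpG treated SjSS, and Irgm2 was at 117, 145 and 126 CPM and at 102, 72.3 and 129 CPM. Igtp was at 81.0, 115 and 90.1 CPM in B6 and 72.9, 52.1 and 93.2 CPM in SjSS. The strains overlapped for each of these genes, and the second SjSS sample was the lowest. In B6 the log2 fold changes were 1.69 ± 0.15 for Irgm1 (adjusted p = 8.2e-09), 1.85 ± 0.14 for Irgm2 (adjusted p = 8.55e-10) and 2.45 ± 0.15 for Igtp (adjusted p = 6.05e-11). In SjSS, Igtp rose by 1.63 ± 0.15 (adjusted p = 2.04e-08), while the values for Irgm1, 0.75 ± 0.14 (adjusted p = 0.000194), and Irgm2, 1.03 ± 0.13 (adjusted p = 2.43e-06), were below the fold threshold. The call of Igtp in SjSS ended when its counts were added to those of Irgm2, at 1.255 for the sum.

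Of the effectors, Ifi47 reached 74.1, 104 and 90.1 CPM in CpG treated B6 and 82.6, 57.1 and 101 CPM in CpG treated SjSS. Iigp1 reached 29.0, 52.1 and 43.1 CPM in B6 and 41.0, 17.6 and 38.3 CPM in SjSS. Tgtp2 reached 33.4, 60.1 and 45.5 CPM in B6 and 35.6, 21.5 and 49.3 CPM in SjSS, and Tgtp1 was at 0.423, 1.28 and 0.739 CPM and at 0.720, 0.667 and 0.502 CPM. Again the strains overlapped for every gene. In B6 the changes were 1.83 ± 0.14 for Ifi47 (adjusted p = 2.19e-09), 2.84 ± 0.27 for Iigp1 (adjusted p = 2.75e-08), 3.14 ± 0.24 for Tgtp2 (adjusted p = 1.19e-09) and 2.48 ± 0.42 for Tgtp1 (adjusted p = 4.58e-05). In SjSS, Iigp1 rose by 1.69 ± 0.26 (adjusted p = 1.68e-05), Tgtp2 by 1.77 ± 0.22 (adjusted p = 1.79e-06) and Tgtp1 by 1.52 ± 0.42 (adjusted p = 0.0045), and the value for Ifi47, 1.03 ± 0.14 (adjusted p = 4.44e-06), was below the fold threshold. The Tgtp1 call in SjSS ended without the first control SjSS sample, at 1.15 (adjusted p = 0.0347).

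The CpG samples of each strain differed from each other in the same way across members. In B6 the first sample was the lowest and the second the highest for all 7 members, and in SjSS the second was the lowest for 6 of 7. The same samples were the lowest for 12 of 14 other interferon-inducible GTPases in both strains. Among 11 other IRG genes they were the lowest for 8 in B6 and 6 in SjSS. A shared order was not particular to CpG, since the second AC treated SjSS sample was also the lowest for 12 of those 14 GTPases. How many of all tested genes had the same order was not examined.

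The interaction of strain and CpG was below 0 for all 7 members, from -0.79 to -1.37, but only Tgtp2 was called lower (-1.37 ± 0.32, adjusted p = 0.0156), against 0.329% of tested genes. By the adjusted p alone 5 of 7 were lower, against 2.62%. Without the second SjSS CpG sample, the second B6 CpG sample or the third control B6 sample no member was called, and 2 were without the first B6 CpG sample. The levels themselves did not separate by strain with CpG: the log2 differences, SjSS less B6, ran from -0.39 ± 0.14 for Igtp (adjusted p = 0.0612, 95% interval -0.68 to -0.09) to -0.15 ± 0.14 for Ifi47 (adjusted p = 0.489, 95% interval -0.44 to 0.14), and 0 of 7 members passed the test at an adjusted p under 0.05, with or without the fold threshold, against 0.792% of tested genes called lower and 9.57% lower by the adjusted p alone. At an unadjusted p, Igtp (0.0131) and Irgm2 (0.0137) were under 0.05.

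Without treatment 6 of the 7 members were higher in SjSS than in B6, each by less than the fold threshold. None of the 7 was called higher at the fold threshold, against 1.3% of tested genes, while 6 of 7 had an adjusted p under 0.05, against 9.04% of tested genes that were higher at this limit. For these 6 every control SjSS sample lay above every control B6 sample, as in 16.9% of tested genes. The log2 difference was 0.99 ± 0.25 for Tgtp2 (1.99-fold, adjusted p = 0.00847), 0.81 ± 0.28 for Iigp1 (1.75-fold, adjusted p = 0.0499), 0.72 ± 0.14 for Irgm1 (1.65-fold, adjusted p = 0.00174) and 0.64 ± 0.14 for Ifi47 (1.56-fold, adjusted p = 0.00406). It was 0.46 ± 0.14 for Irgm2 (1.37-fold, adjusted p = 0.0229) and 0.44 ± 0.15 for Igtp (1.35-fold, adjusted p = 0.0493), so that Igtp and Iigp1 lay just inside the limit. Tgtp1, with few counts, overlapped between the strains (0.65 ± 0.54, adjusted p = 0.445).

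ACs gave higher levels than CpG in SjSS and not in B6. In SjSS all 7 members were called higher with ACs than with CpG, by 2.86 to 6.21 on the log2 scale, against 5.38% of tested genes. In B6 none was called lower with ACs than with CpG at the fold threshold, against 3.47%, while 4 of 7, Igtp (-1.09 ± 0.14, adjusted p = 3.96e-06), Ifi47 (-0.78 ± 0.14, adjusted p = 0.000129), Irgm2 (-0.61 ± 0.13, adjusted p = 0.000884) and Tgtp2 (-0.58 ± 0.21, adjusted p = 0.0288), were lower at an adjusted p under 0.05, against 22.4%. The sources differ on how long BMDMs were kept after the wash of ACs, so that whether the times of both stimuli matched cannot be told.

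Other IRG genes did not all move as the 7 members did. Of 12 further genes of the family, 10 were tested. With ACs 2 were called higher in B6, against 2.43% of all tested genes, and 8 in SjSS, against 7.09%. Their median log2 fold changes were -0.14 and 3.37. Gm12250, also known as Irgb10, was at 5.43, 5.38 and 5.03 CPM in control and 22.2, 19.0 and 22.0 CPM in AC treated B6, and at 7.17, 7.96 and 8.52 CPM in control and 250.1, 254 and 253 CPM in AC treated SjSS, a rise of 2.00 ± 0.19 in B6 (adjusted p = 1.18e-07) and of 5.00 ± 0.20 in SjSS (adjusted p = 7.19e-14). The similar genes 9930111J21Rik1 and 9930111J21Rik2 had values of opposite sign in the strains, -0.83 ± 0.15 (adjusted p = 0.000246) and -1.01 ± 0.14 (adjusted p = 1.79e-05) in B6, below the fold threshold, and 1.59 ± 0.15 (called higher) and 1.22 ± 0.14 in SjSS. The first was at 30.7, 35.7 and 31.8 CPM in control and 17.7, 17.5 and 20.1 CPM in AC treated B6, and at 45.4, 41.3 and 44.9 CPM in control and 138, 120.3 and 137 CPM in AC treated SjSS. The interaction of strain and AC was 2.42 ± 0.21 and 2.23 ± 0.20 for them, called higher in both. Irgq, a family member whose sequence has diverged, had the smallest value in SjSS, and the only one below 0 (-0.59 ± 0.06, below the fold threshold). Gm4841 had the largest value (9.47 in SjSS), from a mean of 0.00604 CPM in control, so that its fold depends on few counts. Gm12185, which has the joined promoter match and a span that overlaps that of Tgtp1, was at 0.726 to 1.78 CPM in CpG treated B6 and 0.855 to 1.12 CPM in CpG treated SjSS, within or near its control range of 0.728 to 1.40 CPM, and at 21.7 to 27.5 CPM in AC treated SjSS.

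**Figure D5:**
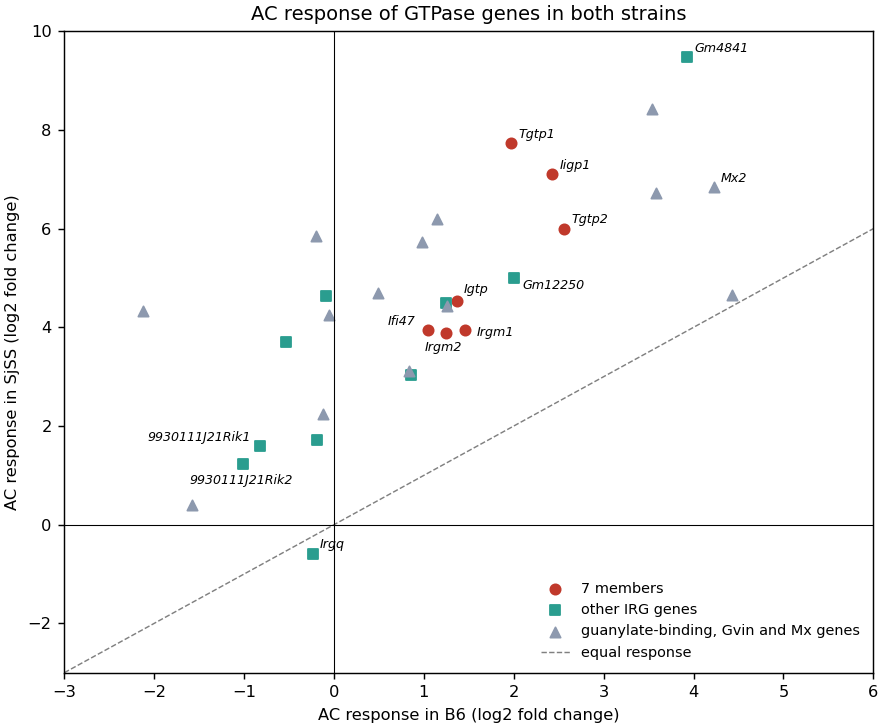
Log2 fold change after ACs in B6 (x axis) and SjSS (y axis) for the 7 members (red circles), 10 other IRG genes (green squares) and 14 guanylate-binding, Gvin and Mx genes (grey triangles), with a dashed line where both responses would be equal. All points but Irgq lie above the line, and the 7 members lie between 1.04 and 2.56 in B6 and between 3.89 and 7.73 in SjSS.

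Guanylate-binding proteins and Mx proteins are larger interferon-inducible GTPases, and the former also act on pathogen vacuoles. Of 14 such genes, 13 were called higher with ACs in SjSS, against 7.09% of tested genes, with a median of 4.68. In B6, 3 were called higher, against 2.43%, and 1 lower, against 2.04%, with a median of 0.91. The largest value in SjSS was that of Gbp5 (8.42 ± 0.24), which went from 3.56, 4.85 and 3.10 CPM to 1355, 1251 and 1236 CPM. Gbp8 was the exception in SjSS (0.40 ± 0.23, adjusted p = 0.147) and fell in B6 (-1.58 ± 0.23, adjusted p = 2.63e-05).

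Upstream of the family, 6 of 14 tested interferon signalling genes were called higher with ACs in SjSS, against 7.09% of all tested genes. In B6 2 of them, Socs1 and Ifnb1, were, against 2.43%. Irf1, a transcription factor of ISRE-type motifs, was at 75.9, 74.2 and 68.8 CPM in control and 126, 131 and 126 CPM in AC treated B6, and at 72.7, 73.4 and 90.4 CPM in control and 1373, 1453 and 1285 CPM in AC treated SjSS. It rose by 4.12 ± 0.11 in SjSS (adjusted p = 6.78e-16), and its change with CpG was 0.35 in B6 and 0.11 in SjSS, where the members changed by 1.69 to 3.14 and by 0.75 to 1.77. The part of Irf1 in either response of the members was not tested. Socs1, an inhibitor of interferon signalling, had the largest rise in SjSS (7.31 ± 0.18, adjusted p = 2.62e-16). Ifnb1, which encodes interferon-β, was at 5.66, 5.45 and 4.85 CPM in AC treated SjSS and at no more than 0.303 CPM in any other sample. Its call in B6 rests on few counts, 0, 0 and 5 in control and 5, 16 and 5 with ACs. The receptor gene Ifngr1 changed the other way, by -0.57 ± 0.06 in SjSS (adjusted p = 1.47e-07), below the fold threshold. In B6 it fell too, from a mean of 235 CPM in control to 153 CPM with ACs and 156 CPM with CpG. With CpG in SjSS it went from 240 to 165 CPM. The mean of Irf8 was also lower, at 313 CPM in control, 252 CPM in AC treated and 184 CPM in CpG treated SjSS. In B6 it was 277 CPM in control, 220 CPM with ACs and 178 CPM with CpG. Stat2 (2.78), Jak2 (2.50) and Irf9 (1.39) were the other genes called higher in SjSS. Ifng was not among the genes of the data used here, so its level was not examined.

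Across the 18 samples the log2 levels of the 7 members were alike, with a Pearson r of 0.9528 to 0.995 over the 21 pairs, and of 0.8625 to 0.988 over the 15 samples without AC treated SjSS. Among 6960 genes whose group means spanned at least 1 on the log2 scale, those most like the mean of the members were Dtx3l (r = 0.9977), Gm12250 (0.9956), Ifih1 (0.9955), Adar (0.9936) and Nt5c3 (0.9927). Without the AC treated SjSS samples their r was 0.972 to 0.9872, and only 1 of the 5 was still among the first 5. The gene most like each member was Dtx3l for Irgm1, Irgm2 and Ifi47, Slfn8 for Igtp, Ifih1 for Iigp1, Gm12250 for Tgtp2 and Rmdn3 for Tgtp1, with r of 0.9876 to 0.9974. These correlations describe genes measured in the same libraries, of which the 3 AC treated SjSS samples stand apart from the other 15.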

How the data were processed

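RNA-seq of 18 BMDM samples was analysed, 3 in each of 6 groups taken from the sample labels. Reads were aligned by the authors with STAR to mm10 and assigned to genes with the E/M tool of Partek, and the deposited values were estimated counts per gene, not normalized, which 41.1% of the time were not whole (tolerance 1e-06). The E/M tool splits reads between similar genes, which affects Tgtp1 and Tgtp2 most. The annotation release and the strand setting were not given in the sources used here.

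Estimated counts were rounded, filtered by filterByExpr (15789 of 20615 genes kept), scaled by TMM and fitted with 1 mean for each group over all 18 samples by the quasi-likelihood method of edgeR 4.0.16 in R 4.3.3, without a replicate block. Adjustment of p was by Benjamini and Hochberg's method over all tested genes within each of 11 comparisons. Each SE is the size of the log2 fold change over the square root of F. CPM used TMM scaled totals, and exon lengths came from GENCODE M21. Totals of 30688336 to 57139662 counts set the precision, and Tgtp1 had the fewest counts of the members. The procedure was tested on simulated data. Python 3.11.15 with pandas 2.3.3 and matplotlib 3.10.9 gave tables and figures, and Biopython 1.88 aligned sequences.

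Promoter sequences were those of RefSeq (GRCm38.p6), with an entry for 6 of the 7 members, and positions of genes were those of the deposited table. The 5 genes most like the members were found by Pearson r on log2 CPM with a prior count of 2. Named genes were the members, those 5, the gene most like each member, and from each list the largest and the smallest change and any of opposite direction. One gene of the interferon signalling list is not reported here. The members, lists and tests were chosen with earlier results of these data known. All 7 members were also in lists the study chose on these samples, so that their rise with ACs in SjSS is not independent evidence.

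The alternatives were DESeq2 1.42.0, DESeq2's size factors, no filter, a filter of 10 counts in 3 samples, other fold thresholds, only the groups compared, a block for the replicate number, leaving out each sample, the copies added together, another length scale, another prior count and Spearman's rho. The copies added together were Tgtp1 with Tgtp2, and also Igtp with its neighbour Irgm2, which are not near copies. The likeness without AC treated SjSS samples was added after the data were seen.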

Additional observations from a re-analysis of the deposited data

Results flagged for a closer look

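The response to ACs differed between the strains by a test of the difference itself (the interaction of strain and AC, the quasi-likelihood test of edgeR, adjusted over all tested genes) for all 7 members. On the log2 scale the SjSS response exceeded the B6 response by 2.48 for Irgm1, 2.64 for Irgm2, 2.90 for Ifi47, 3.18 for Igtp, 3.44 for Tgtp2, 4.68 for Iigp1 and 5.76 for Tgtp1.

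The same test singled out 8 of the 10 other IRG genes tested, against 4.76% of all tested genes called higher. The difference was 1.89 for F830016B08Rik, 2.18 for Gm5431, 2.23 for 9930111J21Rik2, 2.42 for 9930111J21Rik1, 3.00 for Gm12250, 3.25 for Gm4951 and 4.73 for Gm12185. For Gm12187 it was 4.24, from levels of at most 0.471 CPM in any sample.

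The response to CpG differed between the strains, by the interaction of strain and CpG, for Tgtp2 alone among the members (-1.37, adjusted p = 0.0156), and this call was lost without any 1 of 3 samples. No group of 3 samples was searched for single samples that stand apart, since 3 are too few for that rule.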

How the results depend on the processing

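Of 1272 values of single members under the alternatives, 1231 kept their direction and their side of the thresholds, 18 lost a call, 21 gained one, and 2 reversed. The calls of all 7 members for the AC response in SjSS, the strain difference with AC, the interaction of strain and AC and ACs against CpG in SjSS remained under DESeq2, every filter, a log2 fold change over 2 and every sample left out. With a log2 fold change over 2, the members called higher were 2 for the AC response in B6, 4 for the CpG response in B6 and 0 for the CpG response in SjSS, and 0 were called lower for the interaction of strain and CpG. With no fold threshold, 7 were called higher for the CpG response in SjSS and 6 for the strain difference in control, and 5 were called lower for the interaction of strain and CpG and 4 for ACs against CpG in B6. With only the compared groups in the fit, 0 were called for the interaction of strain and CpG (Tgtp2 -1.37, adjusted p = 0.0514). The copies added together leave 5 features, with Tgtp1 added to Tgtp2 and Igtp added to Irgm2. Of these features 3 were called higher for the AC response in B6 and 2 for the CpG response in SjSS.

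With each sample left out in turn, 3 to 4 members were called higher for the CpG response in SjSS and 0 to 2 lower for the interaction of strain and CpG, and the strain difference with CpG ran from -0.36 to 0.041 for Ifi47 and from -0.65 to 0.13 for Tgtp1, with the sign changed without the second SjSS CpG sample and the second B6 CpG sample and no value past the test at either end. The replicate numbers paired the samples in 9 of 18 pairs of the same strain and number at a correlation of deviations over 0.1 (mean 0.1043, range 0.0198 to 0.264), and 16 of 18 samples correlated best with their own number within the strain. The replicate block, over both strains or within each, changed none of 133 calls of members.

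In CPM in place of CPM per kb the GMS share was 71.5, 69.2, 67.1, 45.3, 66.3 and 65.4% in control B6, control SjSS, AC treated B6, AC treated SjSS, CpG treated B6 and CpG treated SjSS, and the Tgtp1 share of the pair was 6.52% in AC treated SjSS. The order of members depends on the length scale as well. In CPM, Irgm1 (955) and Irgm2 (730) stood above Tgtp2 (668) and below Iigp1 (1384) in AC treated SjSS. Of the 5 genes most like the family, 3 remained with Spearman's rho, 5 with a prior count of 0.5 and 1 without AC treated SjSS samples. DESeq2's size factors moved the mean levels by -0.778 to 1.26%. Depth limits Tgtp1 most, at 4 to 14 counts in control samples.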

Other observations

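Among 14 autophagy genes were those of the conjugation system that places IRG proteins on vacuoles. At the fold threshold 0 of the 14 were called in any of the 11 comparisons by edgeR. With ACs 7.09% of all tested genes were called higher in SjSS and 2.43% in B6. At such shares few of 14 genes would be called, so the count does not set these genes apart. For ACs in SjSS 6 were higher and 6 lower by the adjusted p alone, against 28.6% and 29.4% of tested genes. The values for ACs in SjSS ran from -1.21 for Ulk1, a kinase that starts autophagy, to 0.35 for Gabarap, an Atg8 homologue.

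Of 5 tested genes of the ubiquitin path at IRG-coated vacuoles, 3 were called higher with ACs in SjSS, against 7.09% of all tested genes. They were Trim21 (3.10), a ubiquitin ligase, and the adaptors Sqstm1 (2.02) and Optn (1.67). In B6 only Sqstm1 was called (1.67), against 2.43% of all tested genes called higher. The interaction of strain and AC was 2.30 for Trim21 (adjusted p = 8.91e-11), 0.91 for Optn (adjusted p = 1.21e-05, below the fold threshold) and 0.35 for Sqstm1 (adjusted p = 0.0765). With ACs Sqstm1 was 0.40 higher in SjSS than in B6 on the log2 scale (adjusted p = 0.00401, below the fold threshold).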
